A study of Homo sapiens with 10 samples.

Results

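The RET locus was taken as chromosome 10 from 43.34 to 43.70 Mb on the hg19 build, a stretch of 360 kb. The RET gene takes up 43.572 to 43.626 Mb of it, and most of the rest lies upstream of the gene. Every peak that touched this stretch in any of 8 deposited peak lists was kept, which gave 47 peaks of 26482. The stretch was chosen by the presence and the scores of these same peaks, so its values are given as a description, with no test. The ends of RET are known here to the nearest kb, and distances from its start are rounded to whole kb.

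The lists come from ChIP-seq, the sequencing of DNA that an antibody brings down with its target protein. The cells were SK-N-SH, a human neuroblastoma line long kept in culture, and the labels name them as control cells. The 4 groups were MAML3 after 1 µM retinoic acid (RA), MAML3 after vehicle (untreated, UT), RARα after 1 µM RA and RARα after vehicle, with 2 libraries in each. All cells had been moved to charcoal-stripped serum 24 hours before treatment, and the time under RA is not given in the labels. Whether the 2 libraries of a group came from separate cultures is not stated, and 2 input samples were not analysed here.

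RET is a receptor tyrosine kinase that responds to ligands of the GDNF family through GFRα co-receptors. It is needed for the enteric nervous system and the kidney and is made in the sympathetic lineage from which neuroblastoma arises. Retinoic acid is known to raise RET transcript levels in neuroblastoma cell lines. RARα is a nuclear receptor that pairs with RXR on DNA and is switched by retinoic acid, and MAML3 is a mastermind-like coactivator, a family best known from Notch complexes. RNA was not measured in these samples, so the peaks below say where the proteins were called and nothing about RET transcription.

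How deeply the libraries were sequenced is not stated, so the length of a list is all that shows how much was called. The MAML3 lists held 7532 and 6230 peaks after RA and 2222 and 6759 in UT cells. The RARα lists held 1103 and 1064 peaks after RA and 1321 and 251 in UT cells. The list of RARα UT replicate 2, the shortest, carries a tag for merged data that no label explains. The 2 MAML3 UT lists carry the same index tag and may be 1 library on 2 lanes, which no label states. A site that is missing from a list is therefore not shown to be unbound.

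The 47 peaks fell into 10 sites when peaks that overlapped by 1 bp or more were joined over the 8 lists. Of these sites, 9 lay upstream of RET, spread over 190 kb, and 1 lay inside the gene. They are named here by their distance upstream of the RET start, as 205, 135, 106, 97, 95, 85, 20, 19 and 16 kb. In the RA lists the locus held 9 and 8 MAML3 peaks, against 5 and 7 in the UT lists (8.5 ± 0.707 after RA and 6 ± 1.41 in UT cells, SD, n = 2 each). For RARα it held 6 and 6 peaks after RA, against 5 and 1 in UT cells (6 ± 0 after RA and 3 ± 2.83 in UT cells, SD, n = 2 each). The RARα difference in counts was about as large as the spread of the UT pair, which the list of 251 peaks sets. As shares of whole lists, the MAML3 peaks were 0.119 and 0.128% after RA and 0.225 and 0.104% in UT cells. The UT list with the fewest MAML3 peaks in the locus thus had the largest MAML3 share. The RARα shares were 0.544 and 0.564% after RA and 0.379 and 0.398% in UT cells. With 2 libraries against 2 an exact permutation p cannot fall below 0.33, so the counts were not tested. By the lane tags of the lists, the MAML3 counts were 9 after RA and 7 in UT cells for lane tag 3, and 8 after RA and 5 in UT cells for lane tag 7. If the 2 MAML3 UT lists are 1 library, their SD is a spread between lanes, and both lane comparisons use the same UT library. For RARα, lane tag 3 held 6 peaks after RA and 5 in UT cells, and the merged list has no lane tag.

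**Figure D1:**
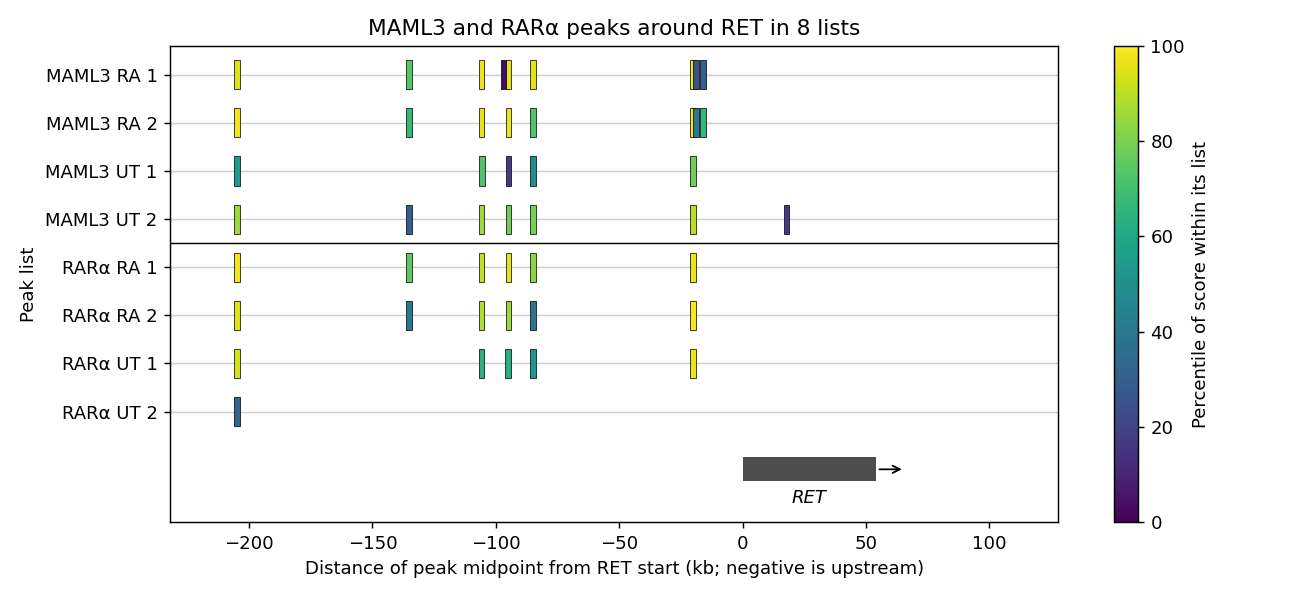
Each mark is the midpoint of a peak, by its distance from the RET start in kb (horizontal axis) and its list (rows, MAML3 above RARα and RA above UT); marks are wider than the peaks, and the colour is the percentile of the deposited score within its own list. The same 5 columns of marks recur in 7 lists, RARα UT replicate 2 has 1 mark, and the RET bar carries a single mark, from MAML3 UT replicate 2.

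A core of 5 sites, at 205, 106, 95, 85 and 20 kb, was present in all 4 MAML3 lists and on at least 3 RARα lists. Of the 10 MAML3 sites of the locus these 5 were in all 4 lists, where 16.8% of the 10251 MAML3 sites of the genome were. The 205 kb site was on all 8 lists, as were 73 of 10581 sites joined genome-wide (0.690%). The other 4 were missing from RARα UT replicate 2 only. Because the stretch was chosen by these peaks, its counts beside the genome-wide shares are a description only. The 3 middle sites lay close to each other, with 9.35 kb between the 95 and 85 kb sites, whereas 64.3 kb without a peak in any list separated the 85 and 20 kb sites.

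The 20 kb site, at 43551530 to 43552079, was the highest scoring of the locus in 6 of the 7 lists that held it. The authors' score of each peak was read here as a percentile within its own list, with 100 at the top. For MAML3 the 20 kb site stood at the 97.8 and 98.6 percentile after RA, and at the 78.2 and 89.8 percentile in UT cells. For RARα it stood at 96.7 and 98.9 after RA and at 96.5 in UT replicate 1. It was thus high in each list that held it, and its RARα peak took place 12 from the top of the 1064 peaks of RA replicate 2. The stretch common to its 7 peaks was 380 bp, the longest shared stretch of any site in the locus.

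The 205 kb site, at 43366708 to 43367279, was the farthest from RET. Its MAML3 peaks stood at the 94.8 and 97.9 percentile after RA and at the 54.5 and 85.0 percentile in UT cells. Its RARα peaks stood at 97.9 and 95.3 after RA, and at 93.0 and 32.9 in UT cells. In RARα RA replicate 1 it outscored the 20 kb site, with place 24 of 1103 against place 37. In RARα UT replicate 2 it had a score of 87.68, where the list begins at 70.04, and was the only peak of the locus. The 8 peaks had 163 bp in common, which is the whole of that narrow peak.

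The 106 kb site, at 43465930 to 43466441, stood at the 97.1 and 95.7 percentile of the MAML3 lists after RA, and at 71.9 and 85.7 in UT cells. Its RARα peaks stood at 91.4 and 88.2 after RA and at 64.0 in UT replicate 1. The 95 kb site, at 43476880 to 43477429, had percentiles that ran from 17.4 to 96.7 over its lists. Its MAML3 percentiles were 95.2 and 96.7 after RA, and 17.4 and 77.9 in UT cells. Its RARα percentiles were 95.6 and 85.3 after RA and 63.2 in UT replicate 1. With both antibodies the percentiles of these sites were higher in each RA list than in the UT lists that held them. The lists differ in length, so percentiles do not show a change between lists.

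The 85 kb site, at 43486780 to 43487241, was the exception of the core, because its RA values did not all lie above its UT values. Its MAML3 peaks stood at the 95.5 and 72.6 percentile after RA and at 49.1 and 79.1 in UT cells. Its RARα peaks stood at 82.8 and 39.3 after RA and at 52.7 in UT replicate 1. RA replicate 2 gave the lower value with both antibodies, and the RA and UT values overlapped for both.

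**Figure D2:**
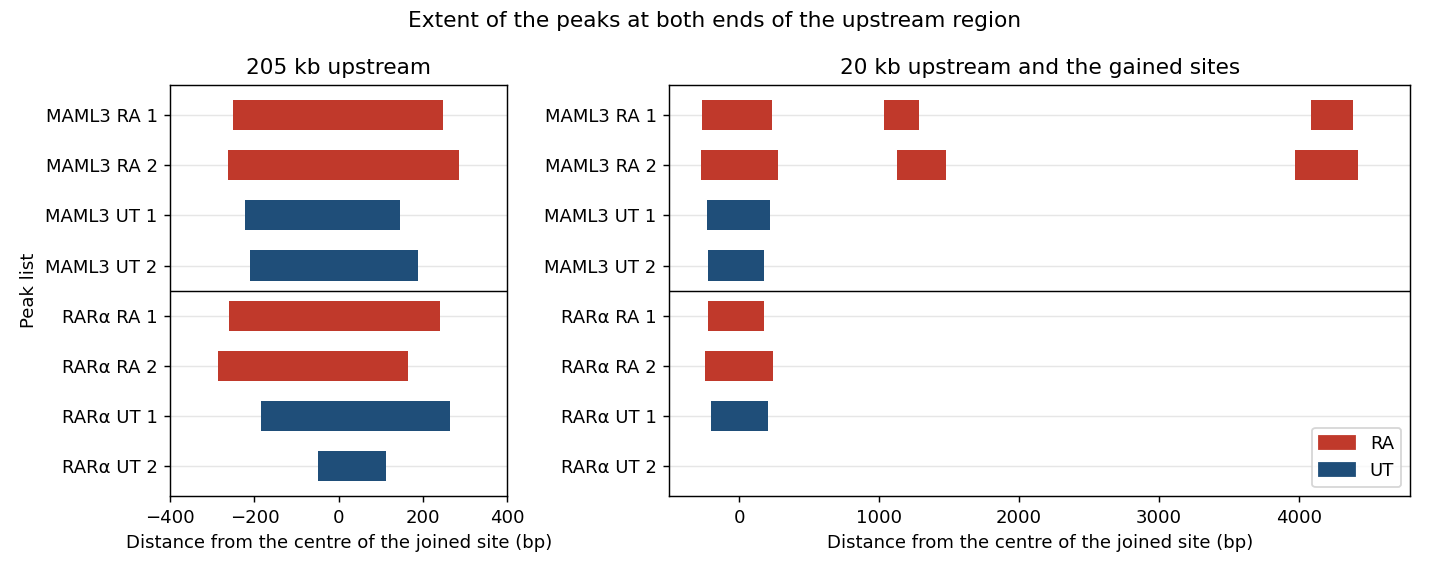
Bars show the extent of each peak in bp from the centre of the joined site, for the 205 kb site (left) and for the 20, 19 and 16 kb sites (right), with RA lists in red and UT lists in blue. The 7 peaks of the 20 kb site share 380 bp, and the bars to its right, at the 19 and 16 kb sites, are in the MAML3 RA lists only.

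Peaks of MAML3 on the RA side only were found between the 20 kb site and RET. Sites present in the 2 RA lists and absent from the 2 UT lists were called gained, and those with the reverse pattern lost. Of the 10 MAML3 sites 2 were gained, at 43552842 to 43553279 (19 kb) and 43555780 to 43556229 (16 kb), where 9.37% of the MAML3 sites of the genome were gained. The 19 kb site stood at the 24.3 and 40.8 percentile of the RA lists and the 16 kb site at the 29.8 and 66.0 percentile. Both therefore lie in the weaker part of RA replicate 1, and neither carried a RARα peak. The 19 kb site begins 0.762 kb from the 20 kb site, and when peaks up to 1 kb apart were joined it became part of that site, leaving 1 gained site. Both calls ended when each list was cut to its top-scoring 50% or to 2222 peaks, since neither site was then in both RA lists, and the 135 kb site was the only gained MAML3 site in both cases. No MAML3 site was lost, as were 0.683% genome-wide. Without MAML3 UT replicate 1, a single peak of UT replicate 2 inside RET, at 43589682 to 43589831, counted as lost.

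The 135 kb site, at 43436680 to 43437091, was the RARα site gained with RA. It stood at the 75.3 and 40.6 percentile of the RARα RA lists and was on neither UT list. Of the 6 RARα sites this was the only gained one, where 5.42% of 2120 RARα sites were gained genome-wide, and none was lost (0.472% genome-wide). MAML3 held the 135 kb site in both RA lists, at the 73.5 and 67.4 percentile, and in UT replicate 2, at the 29.6 percentile. Its RARα score was the lowest of the 6 in RA replicate 1 and above only the 85 kb site in RA replicate 2. The RARα call ended with each list cut to its top-scoring 50%, which left no gained RARα site, and with lists cut to 251 peaks, where the 106 and 95 kb sites were gained and the 135 kb site was in no RARα list. Without RARα UT replicate 1, 5 sites would count as gained in place of 1, since the list of 251 peaks alone then stands for UT cells, and 25.0% of 1615 sites were gained genome-wide under the same omission. All 4 RARα lists held 1 of the 6 sites, where 6.75% were in all 4 lists genome-wide. Without RARα UT replicate 2 the 3 other lists shared 5 sites, where 20.7% of 2091 sites were shared genome-wide.

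The remaining MAML3 sites were on 1 list each. The 97 kb site, at 43475142 to 43475291, was in RA replicate 1 at the 2.82 percentile, with a score of 72.48 in a list that begins at 70.01. The site inside RET was in UT replicate 2 at the 17.3 percentile, with a score of 89.01 in a list that begins at 70.00. It lay 18 kb past the RET start and was the only peak of any list within the gene. Whether it falls in an exon or an intron was not looked up, because an hg19 annotation was not used here. No list had a peak between the 16 kb site and the RET start, so none was called at the start of the gene itself.

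RARα in this locus lay where MAML3 lay. All 6 RARα sites of both RA lists overlapped a MAML3 site of both RA lists, where 81.7% of 557 such sites did genome-wide, so this count is near the background. Seen from MAML3 the share stood farther from it, with 6 of the 8 MAML3 sites of both RA lists carrying a RARα site of both RA lists, where 9.14% of 4947 did. Of the 5 MAML3 sites in all 4 lists all carried such a RARα site, where 18.0% of 1724 did. The stretch was chosen by its peaks of both antibodies, so a larger share than genome-wide follows from that choice and is a description only. In UT cells the single RARα site of both lists, at 205 kb, overlapped a MAML3 site of both lists (56.1% of 189 genome-wide), and 1 of 5 MAML3 sites of both UT lists carried it (5.45% of 1946). The UT counts rest on RARα UT replicate 2, and without it 5 RARα sites overlapped MAML3 in UT cells.

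The centres of the 2 proteins' peaks were close. At the 6 shared sites the mean RARα midpoint and the mean MAML3 midpoint were 3.67 to 32.0 bp apart, with a median of 15.2 bp. At the 1735 other sites of the genome with both proteins the median was 34.9 bp, and the middle 50% of sites ran from 16.1 to 65.9 bp. The means at the 6 sites were taken over 3 or 4 MAML3 peaks and 2 to 4 RARα peaks. The 1735 sites were not matched to them for the number of peaks averaged, so the medians are not a like comparison. Peaks of the MAML3 RA lists had widths in steps of 50 bp in 99.9 and 100% of cases, so offsets of this size are not resolved at a single site.

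To compare treatments at the same sites, each peak was also given its place counted from the top of its list, where place 1 has the highest score. This place does not change when lower peaks are added to a list. For MAML3 the 20 kb site had places 164 and 88 after RA, against 485 and 688 in UT cells. The 106 kb site had places 217 and 270 after RA, against 625 and 967 in UT cells. The 95 kb site had places 363 and 207 after RA, against 1835 and 1496 in UT cells. Thus in both RA lists each of these stood nearer the top than in either UT list. The 205 kb site did likewise, with places 393 and 134 after RA and 1012 and 1016 in UT cells. The 85 kb site had places 341 and 1706 after RA and 1132 and 1413 in UT cells, which overlap.

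Of the 5 core sites 4 stood higher in both RA lists than in both UT lists, where 14.3% of the 1724 MAML3 sites in all 4 lists did. Genome-wide the opposite order was more frequent, at 38.5%, and none of the 5 had it. Within lane tag 3 all 5 core sites stood higher after RA than in UT cells, where 39.0% did genome-wide, and for lane tag 7 the number was 4 of 5, where 31.7% did. Places in MAML3 UT replicate 1 end at 2222, whereas those in the RA lists run to 7532 and 6230. A site past place 2222 in an RA list thus could not stand higher there than in UT replicate 1. No core site was past it, so genome-wide shares that use this UT list are not a like background for the core. Places rank peaks inside a list and are not levels, so a higher place does not measure more MAML3 on the site. The 5 sites share the same 4 lists and are not replicates of the treatment. They were chosen with these scores known, and the comparison was added after the data were seen, so it is a description only.

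**Figure D3:**
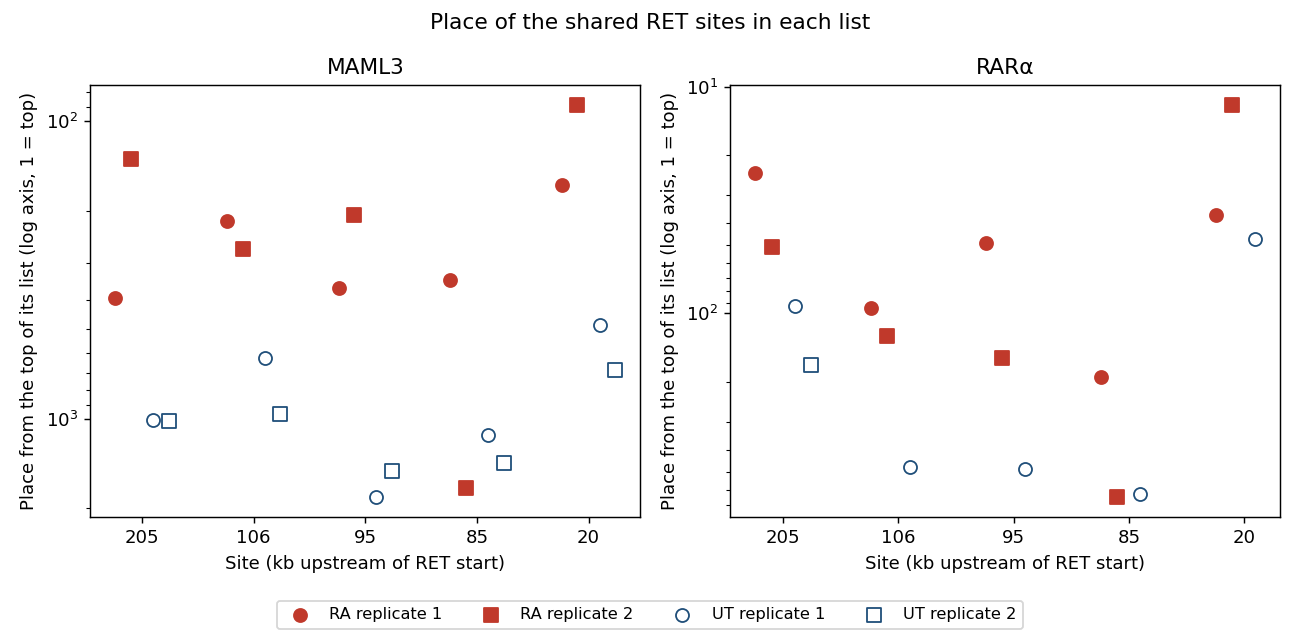
Place of each core site counted from the top of its list (vertical log axis, 1 at the top), for MAML3 (left) and RARα (right), with RA lists as filled red marks and UT lists as open blue marks. Filled marks lie above open ones at the 205, 106, 95 and 20 kb sites, and at 85 kb they overlap.

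RARα showed the same order over the 3 lists that held the core. The 20 kb site had RARα places 37 and 12 after RA and 47 in UT replicate 1, a small step. The 205 kb site had places 24 and 51 after RA and 93 in UT replicate 1. The 106 kb site had places 95 and 126 after RA, against 476 in UT replicate 1, and the 95 kb site had places 49 and 157 after RA, against 487. The 85 kb site, with places 190 and 646 after RA and 625 in UT replicate 1, overlapped again. So 4 of 5 stood higher in both RA lists than in UT replicate 1, where 35.2% of 432 RARα sites on those 3 lists did and 34.7% had the opposite order. A single UT list decides this comparison, which was also added after the data were seen, at sites chosen with these scores known.

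The core was of middle to high rank among sites of its kind. By the mean percentile over the 4 MAML3 lists, the 20 kb site (91.1) took place 287 of 1724, the 106 kb site (87.6) place 408 and the 205 kb site (83.0) place 578. The 85 kb site (74.1) and the 95 kb site (71.8) lay next to the median of the class, 74.4. Among the 961 gained MAML3 sites, whose median was 36.2, the 16 kb site (47.9) took place 309 and the 19 kb site (32.5) place 564. The RARα site gained at 135 kb (58.0) took place 48 of 115. Neither the core nor the gained sites of RET were thus at the very top of their class.

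**Figure D4:**
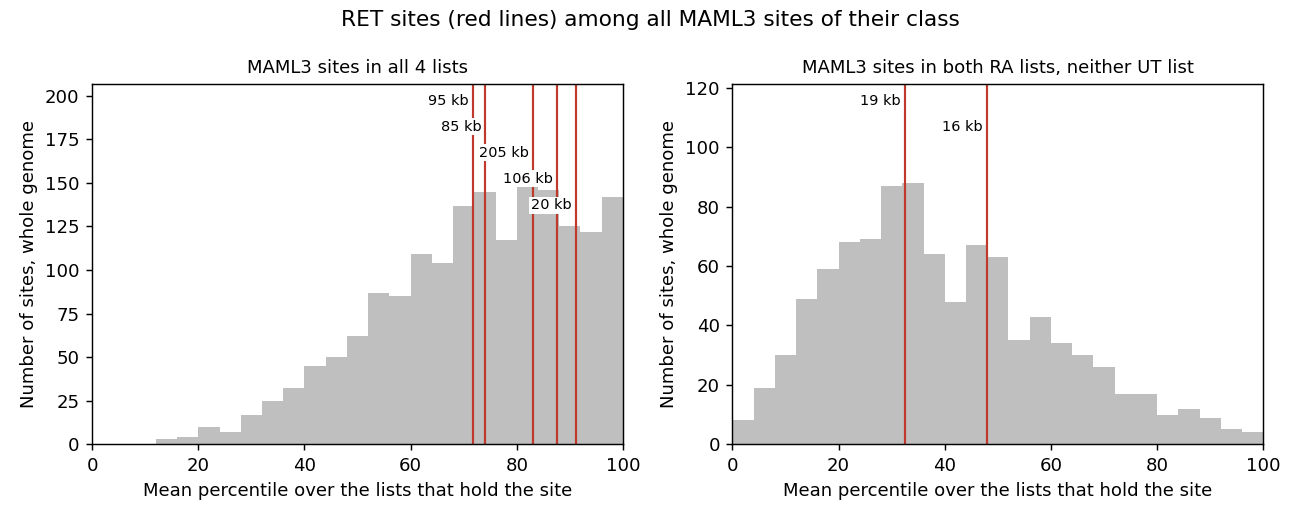
Grey bars count the MAML3 sites of the genome by their mean percentile over the lists that hold them, for sites in all 4 lists (left) and sites in both RA lists and neither UT list (right); red lines mark the RET sites by their kb upstream. The 20 kb site (91.1) is the highest of the 5 lines on the left, and the 19 and 16 kb sites lie on either side of the gained median of 36.2.

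In the lists as deposited, the locus had no close neighbours, but 7 of the 8 lists lack 1 to 21 peak numbers between their nearest earlier peak and the locus, and those peaks were not analysed here. Its outermost peaks began at 43366708 and ended at 43589831. The nearest peak of any list before it, at 42631258 to 42631357 in RARα UT replicate 1, was 735.4 kb away and had a score of 71.58. The nearest after it, at 43845682 to 43845931 in MAML3 UT replicate 2, was 255.8 kb away with a score of 86.1. Inside the locus peaks were 8.45 to 18.4 times as dense as in the rest of the same MAML3 list and 31.0 to 46.2 times as dense as in the rest of the same RARα list, which follows from choosing the stretch by its peaks. In RefSeq's annotation of GRCh38.p14, the genes listed next to RET are MIR5100, LINC01264 and LINC02623 before its start and CSGALNACT2-DT and CSGALNACT2 after its end. Positions were not carried between the builds, so no site is placed in any of them.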

How the data were processed

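ChIP-seq peak lists of 8 libraries were analysed. Per the submitters' processing notes, the tools were MACS, bedtools and BWA 0.5.9, on the hg19 build. No source used here states the threshold, the use of input or the filtering that the list names mention. The deposited lists carry 1 score per peak, made by the authors on a scale that no header states, and it served only to rank peaks of the same list. Starts were raised by 1 so that positions begin at 1.

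Peaks overlapping by 1 bp or more were joined into sites, per antibody for calls and over all 8 lists for naming. Percentiles give tied scores their middle rank. Background shares cover all sites of the genome. Joining and calling were tested on simulated lists. Sample titles gave the groups and replicate numbers. The stretch, the sites and the measures were chosen with earlier results of these data known. All 10 sites are named, by that rule.

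Planned steps that were not run are promoter motifs, since no peak lay at the RET start, and the list of GDNF pathway genes, which needs an hg19 annotation. Sequences of the sites are not shown, since an hg19 genome was not used here. The alternatives were a stricter and a looser overlap, shorter lists, other windows, sites of at least 1 replicate, tied scores at their lowest rank and each replicate left out. The comparison of places from the top and its alternatives (each replicate left out, full-list percentiles) were added after the data were seen. Python 3.11.15, numpy 2.4.6 and matplotlib 3.10.9 were used.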

Additional observations from a re-analysis of the deposited data

How the results depend on the processing

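Of 136 values under an alternative, 106 stayed within 1.5 times the count reported, or, for percentiles, within the replicate spread. Whether the order of RA and UT lists held was not scored, and it did not hold throughout. With each list cut to its top-scoring 50%, RARα RA replicate 2 held 4 peaks and UT replicate 1 held 5. In the full lists they held 6 and 5. RARα RA replicate 1 held 6 in both cases. With the RET gene alone as window, MAML3 UT replicate 2 kept 1 peak and the other lists 0. With each list cut to its top-scoring 50%, MAML3 UT replicate 1 held 3 peaks and RARα UT replicate 2 held 0, with 1 gained MAML3 site (135 kb in place of 19 and 16 kb), 3 MAML3 sites in all 4 lists, 0 gained RARα sites, 0 RARα sites in all 4 lists and 0 RARα sites on MAML3 in UT cells. With lists shortened to 2222 (MAML3) or 251 (RARα) peaks, RARα UT replicate 1 held 2 peaks, 1 MAML3 site was gained (at 135 kb, which UT replicate 2 then lacked, while the 19 and 16 kb sites no longer were in both RA lists), and 2 RARα sites were gained (106 and 95 kb). Median percentiles of the locus peaks then were 84.2 in place of 94.8 for MAML3 RA replicate 1, 54.3 in place of 79.1 for MAML3 UT replicate 2, and 80.7 and 64.9 in place of 93.5 and 86.7 for RARα RA replicates 1 and 2. For RARα UT replicate 1 the median was 72.3 in place of 64.0. It then lay above RARα RA replicate 2 and below RARα RA replicate 1. With peaks up to 1 kb apart joined, 1 MAML3 site was gained. With sites of at least 1 replicate, 1 MAML3 site was lost, 5 RARα sites were in both treatments and 5 lay on MAML3 in UT cells.

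Leaving out each replicate gave 2 to 3 gained, 0 to 1 lost and 5 to 6 constant MAML3 sites. It gave 1 to 5 gained, 0 lost and 1 to 5 constant RARα sites, 6 RARα sites on MAML3 after RA, and 1 to 5 in UT cells. The core sites that stood higher after RA numbered 4 to 5 for MAML3 and 4 to 5 for RARα. The values of 5 for gained, constant and shared RARα sites come from leaving out a UT replicate, and those of 5 for core sites from leaving out RA replicate 2. The cause was not tested. No paired analysis was possible because the results come from no test, and the values by lane tag are a description. Unknown read depth limits what a missing peak can show.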

Other observations

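The deposited peak names are numbered by position, and some numbers are not listed. Within the locus the numbers ran without a gap in each of the 8 lists, so no numbered peak between the outermost ones of a list was left out there. Between the locus and the next later peak, 1 list lacked a number.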
